A study of Mus musculus with 15 samples.

Results

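Expression of 9 mouse genes that build or position tight junctions was examined in retinal pigment epithelium (RPE) material with and without Prominin-1 (Prom1). The genes were taken by symbol and comprise the claudins Cldn1, Cldn2, Cldn12 and Cldn19, the membrane proteins Ocln and F11r, the scaffolds Tjp1 and Magi1, and the polarity scaffold Pard3, which are 9 of 26509 genes with a row in either of the deposited count tables. All 9 had a row in the RPE/choroid table of 25038 genes. Cldn1, Cldn2, Cldn12, Tjp1, Magi1 and Pard3 had a row in the table of 20910 genes from the cultured cells, and Cldn19, Ocln and F11r were not analysed here in that material. Every one of these 6 and 9 genes passed the filter on low counts.

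The cultured cells (mRPE) came from pooled C57/BL6J mice and were immortalised with a lentivirus carrying HPV E6/E7, so all 9 mRPE libraries share that treatment. They comprise 4 libraries of WT cells, 3 of the Prom1-KO line KO22 and 2 of the Prom1-KO line KO26. Both KO lines carried a lentiviral Cas9 construct kept under puromycin and were transfected with a guide RNA against an exon of Prom1, and each line stands for 1 editing event. Whether the sequenced WT cells carried Cas9 or a scrambled guide was not given in the sources used here. The tissue set comprises RPE/choroid from 3 WT mice and 3 mice labelled Prom1-KO, obtained by crossing Prom1fl/fl with RPE65-Cre mice and gavage with Tamoxifen. The labels gave no age for these mice and did not say whether the WT mice received Tamoxifen or carried Cre. RPE65-Cre acts in the RPE, so other cells of the RPE/choroid keep Prom1 by design.

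Tight junctions seal the gap between neighbouring epithelial cells, and in the RPE they form the outer blood-retinal barrier. Claudins span the membrane and set which ions and solutes pass, occludin and F11r (JAM-A) are further membrane proteins of the junction, and the plaque proteins Tjp1 (ZO-1) and Magi1 tie them to actin and to signalling proteins. Pard3, with Pard6 and atypical protein kinase C, marks the apical side of the cell and helps to place the junction.

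Total counts ranged from 8076188 to 27537863 per library in mRPE and from 48154444 to 61766179 in RPE/choroid. Levels are given as CPM, a gene's count relative to its library's total after scaling by the trimmed mean of M values (TMM), and the mRPE libraries came from 2 sequencing batches, named 8995 and 9262 in the library names. Of 13 RPE markers, 9 were not analysed here in mRPE (Rpe65, Rlbp1, Lrat, Ttr, Otx2, Tyr, Dct, Krt8 and Krt18), and the other 4 summed to between 8.17 and 39.95 CPM. A list of 6 fibroblast and smooth muscle genes summed to between 2834 and 10500 CPM in the same libraries, and the epithelial cadherin Cdh1 did not exceed 1.04 CPM. The RPE identity of the cultured cells was therefore taken from the label. Prom1 itself was not analysed here in mRPE. In RPE/choroid it stood at 48.7, 49.6 and 53.3 CPM in WT and at 49.9, 48.1 and 35.5 CPM in the libraries labelled Prom1-KO, and it did not pass the test (log2 fold change -0.18, SE 0.16, edgeR adjusted p = 0.824). The level in bulk tissue therefore did not bear out the label. Photoreceptors also express Prom1, and a list of 8 photoreceptor genes summed to between 38.98 and 1054 CPM in WT and between 19.9 and 513 CPM in the libraries labelled Prom1-KO. Its part in the Prom1 level was not tested.

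Promoter sequences are shown for Cldn1, Cldn2 and Magi1, because these were the genes past both limits in KO22 cells. Each run holds the 250 bases before the start of the Ensembl-canonical transcript, 5′ to 3′ on the gene's strand, in the GRCm39 (mm39) build, with CG dinucleotides in capitals. The Cldn1 window is chr16:26190597-26190846 on the minus strand, the Cldn2 window is chrX:138701230-138701479 on the plus strand, and the Magi1 window is chr6:94260899-94261148 on the minus strand.
Cldn1: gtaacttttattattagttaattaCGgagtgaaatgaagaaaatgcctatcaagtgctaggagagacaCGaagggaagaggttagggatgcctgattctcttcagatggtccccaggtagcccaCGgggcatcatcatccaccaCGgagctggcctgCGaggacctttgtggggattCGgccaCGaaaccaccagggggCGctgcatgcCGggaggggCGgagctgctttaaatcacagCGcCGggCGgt
Cldn2: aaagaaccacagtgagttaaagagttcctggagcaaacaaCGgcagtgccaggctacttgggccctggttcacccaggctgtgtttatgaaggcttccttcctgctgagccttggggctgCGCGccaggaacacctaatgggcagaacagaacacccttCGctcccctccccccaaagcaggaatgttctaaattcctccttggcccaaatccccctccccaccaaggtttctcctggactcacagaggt
Magi1: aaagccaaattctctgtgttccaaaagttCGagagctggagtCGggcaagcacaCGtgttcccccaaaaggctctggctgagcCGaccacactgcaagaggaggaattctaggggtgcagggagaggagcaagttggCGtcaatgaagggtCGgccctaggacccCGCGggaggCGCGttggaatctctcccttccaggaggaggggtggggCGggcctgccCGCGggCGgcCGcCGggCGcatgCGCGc

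The windows differed in CG content. Cldn1 held 13 CG dinucleotides, Cldn2 held 4 and Magi1 held 19, beside a median of 8 over 21757 promoters of the same length, and their GC contents were 54.8%, 55.6% and 64.4%. A total of 3 motifs with different letters were searched on both strands: CAGGTG, the E-box bound by Snail and ZEB repressors, CATGTG, the core of the M-box bound by MITF, and GGATTA, the core bound by OTX factors. None of these letters occurred in the 3 windows shown. Over the 9 genes, CAGGTG was found only in the F11r window, at 85 bases before the start, and GGATTA only in the Cldn19 window, at 235 bases before the start, while 17.7% of all promoters held the E-box, 10.5% the M-box core and 7% the OTX core. A match describes letters and not binding.

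Comparison of KO22 with WT mRPE asked how loss of Prom1 in this line went with junction transcripts. Cldn1, Cldn2 and Magi1 were lower in KO22, the claudins to a small fraction of their WT level, whereas Cldn12, Tjp1 and Pard3 did not pass the limits for a call. The study's limits served for a call, namely a log2 fold change beyond 1.2 in either direction together with an adjusted p below 0.05. By this rule 3 of 6 genes were called and all 3 were lower, beside 25.2% of all 20455 genes tested called in either direction, 13.8% lower and 11.4% higher. By the adjusted p alone 5 of 6 passed, beside 53% of all genes, and 4 of 6 in the fits in which Cldn12 did not pass. The median log2 fold change was -1.16 over the 6 genes and -0.03 over all genes tested.

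Cldn1 (chr16:26175392-26190596, minus strand) encodes a sealing claudin found in many epithelia. It stood at 130, 221, 293 and 295 CPM in the WT libraries and at 0.173, 9.59 and 4.35 CPM in KO22, which was 2, 199 and 56 reads. Every KO22 library lay below every WT library, and the KO22 library of batch 8995 was the lowest. Cldn1 fell by 5.69 on the log2 scale (SE 0.51, edgeR adjusted p = 1.98e-05). On the scale of log2 of CPM plus 0.5, the difference was -7.60 between the single libraries of batch 8995 and -5.26 within batch 9262.

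Cldn2 (chrX:138701480-138712135, plus strand) encodes a claudin that forms channels for cations and water. WT libraries held 49.3, 64.7, 86.1 and 98.6 CPM, and KO22 libraries held 0.0865, 0.675 and 0.388 CPM, which was 1, 14 and 5 reads. The groups did not overlap. Cldn2 fell by 7.41 on the log2 scale (SE 0.30, edgeR adjusted p = 3.72e-07). The KO22 level rested on 20 reads in all (exact 95% Poisson interval 12.2 to 30.9, counting error only), and the ratio of mean CPM was 195-fold, so the size of the fold is less certain than its direction. The differences within batches were -6.41 and -6.33 on the same scale.

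Cldn12 (chr5:5539537-5564995, minus strand) encodes a claudin that lacks the C-terminal motif by which most claudins bind ZO proteins. It stood between 57.6 and 66.5 CPM in WT and at 55.4, 104 and 99.8 CPM in KO22. The KO22 library of batch 8995 lay below the WT range and both libraries of batch 9262 lay above it. The log2 fold change was 0.48 (SE 0.18, edgeR adjusted p = 0.048), which did not pass the fold limit, and the sign differed between batches, with -0.26 within batch 8995 and 0.77 within batch 9262. The adjusted p of Cldn12 was over 0.05 with edgeR's filterByExpr (0.0628), without the batch term (0.0683) and on leaving out WT replicate 2, 3 or 4 or KO22 replicate 2 or 3, reaching 0.22 without KO22 replicate 2. Without WT replicate 1 or KO22 replicate 1, both of batch 8995, its log2 fold change was 0.76 and 0.78 (edgeR adjusted p = 1.37e-07 and 5.95e-08), still short of the fold limit.

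Magi1 (chr6:93652434-94260898, minus strand) encodes a membrane-associated scaffold with several PDZ domains. WT libraries held 31.7, 34.9, 37.9 and 41.8 CPM, and KO22 libraries held 3.55, 10.8 and 11.9 CPM, again with the library of batch 8995 the lowest. Magi1 fell by 2.10 on the log2 scale (SE 0.24, edgeR adjusted p = 9.77e-05), and the groups did not overlap. The median gene of chromosome 6 had a log2 fold change of -0.45 in this comparison. That median was 0.20 for chromosome 16, which holds Cldn1, and 0.20 for the X chromosome, which holds Cldn2. It was -0.11 for chromosome 5 (Cldn12) and -0.32 for chromosome 7 (Tjp1).

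Tjp1 (chr7:64945898-65177529, minus strand), which encodes ZO-1, stood between 203 and 257 CPM in WT and at 191, 216 and 178 CPM in KO22. The groups overlapped, and the log2 fold change of -0.22 (SE 0.12) did not pass the test (edgeR adjusted p = 0.163). Pard3 (chr8:127790392-128338767, plus strand) stood between 48.5 and 58.1 CPM in WT and at 82.2, 75.3 and 75.3 CPM in KO22, with no overlap. Its log2 fold change of 0.52 (SE 0.11, edgeR adjusted p = 0.00289) did not pass the fold limit, and the median over the 1089 genes tested on chromosome 8 was 0.60. Groups were apart for 4 of the 6 genes, beside 50.1% of all genes tested.

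**Figure D1:**
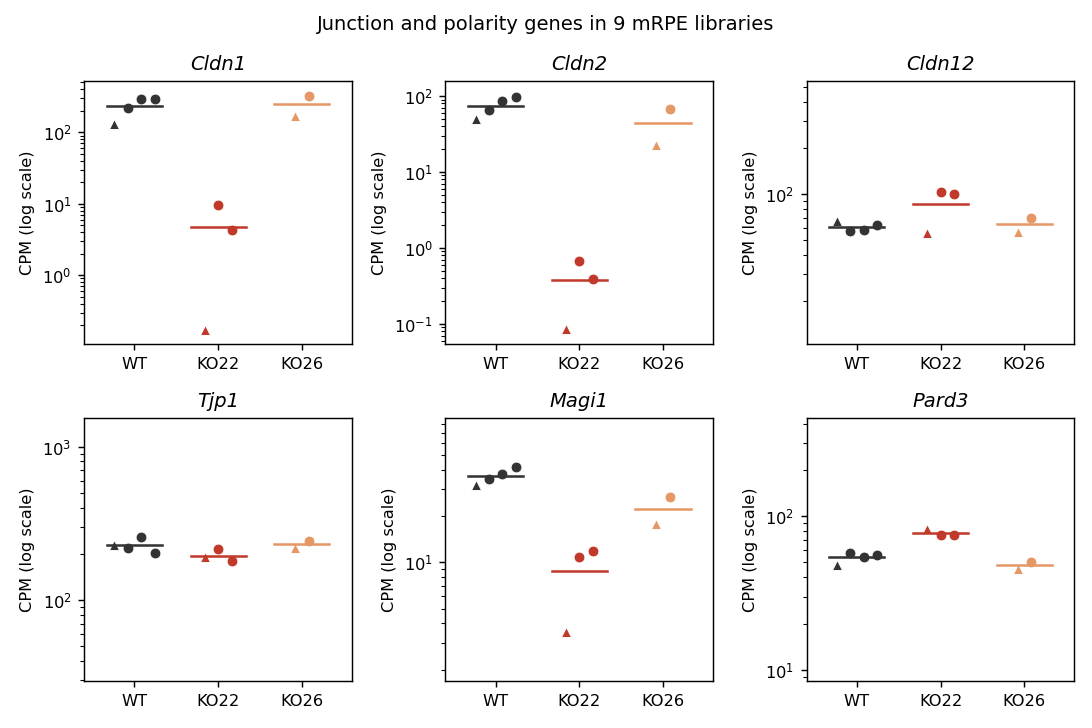
CPM of 6 genes in each mRPE library on log axes, with WT in black, KO22 in red and KO26 in orange; triangles are batch 8995, circles are batch 9262 and bars are group means. Cldn1, Cldn2 and Magi1 are lowest in the 3 KO22 libraries, and the triangle is the lowest KO22 point for each of them.

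Other transcripts moved with the KO22 label. The fibroblast and smooth muscle list summed to between 6783 and 8912 CPM in WT and between 2834 and 4331 CPM in KO22, with 4 of its 6 genes called lower (Col1a1, Pdgfra, Pdgfrb and Acta2). The endothelial list summed to between 153 and 237 CPM in WT and between 4.03 and 5.93 CPM in KO22, nearly all of it from Kdr in WT, and Cdh5 and Cldn5 were not analysed here in mRPE. Within that list Kdr (log2 fold change -6.22, edgeR adjusted p = 8.68e-06) and Tek (-2.38, adjusted p = 0.00133) fell by edgeR, Plvap rose (1.82, edgeR adjusted p = 0.0192) from a level under 1 CPM, and Pecam1, Esam and Vwf did not pass. Of the RPE markers with a row, Mitf rose from between 3.02 and 6.77 CPM in WT to 20.1, 12.5 and 10.4 CPM in KO22 (log2 fold change 1.41, edgeR adjusted p = 0.0055). Rdh5 went the other way, from between 3.62 and 4.61 CPM in WT to between 1.21 and 2.60 CPM in KO22. Its log2 fold change of -1.13 (edgeR adjusted p = 0.00393) fell short of the fold limit. Best1 (0.80) and Pmel (-0.40) did not pass the test. Mitochondrial counts made up 17.6% to 21.6% of the WT libraries and 14.0% to 16.3% of the KO22 libraries. The Y-linked gene Ddx3y stood between 44.8 and 60.03 CPM in WT and at 0.605, 5.83 and 4.89 CPM in KO22, with the library of batch 8995 again the lowest. The part of these shifts in the Cldn1, Cldn2 and Magi1 results was not tested.

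The makeup of claudin transcripts differed accordingly. Per kilobase of exon, the 7 claudins with a row summed to between 50.6 and 98.9 CPM per kilobase in WT mRPE and between 7.49 and 14.9 in KO22. Cldn1 accounted for 53.1% to 64.2% of that sum in WT and 0.476% to 13.3% in KO22. Cldn2 accounted for 25.5% to 29.0% in WT and 0.336% to 1.32% in KO22. Cldn12 made up 6.05% to 12.9% in WT and 68.1% to 72.4% in KO22, so it was the leading claudin transcript of KO22 cells while its own level did not pass the fold limit. The remaining claudins, Cldn10, Cldn15, Cldn20 and Cldn22, did not pass the test.

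Levels of different genes were compared per kilobase of exon. In WT mRPE, Cldn1 was highest at 48.4 ± 16.03 CPM per kilobase (SD, n = 4), followed by Tjp1 at 28.7 ± 2.83 and Cldn2 at 21.7 ± 6.39. The ranges of these neighbours overlapped. Cldn12 followed at 5.99 ± 0.41, apart from Cldn2 and from Pard3 at 3.59 ± 0.27, and Pard3 overlapped with Magi1 at 3.46 ± 0.40. In KO22, Tjp1 led at 24.6 ± 2.41 (SD, n = 3) and Cldn2 was last at 0.112 ± 0.086. In WT RPE/choroid, Tjp1 led at 12.2 ± 0.74 (SD, n = 3), apart from Cldn1 at 6.21 ± 1.35. Cldn1 overlapped with F11r at 4.94 ± 1.61, and Cldn2 at 1.62 ± 0.88, Pard3 at 1.50 ± 0.27 and Magi1 at 1.25 ± 0.05 formed an overlapping run. Cldn12 at 0.59 ± 0.04 stood apart from Ocln at 0.35 ± 0.09, which overlapped with Cldn19 at 0.33 ± 0.30. Exon lengths are those of all isoforms joined, and the tables were normalised separately, so only orders within a table can be read.

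**Figure D2:**
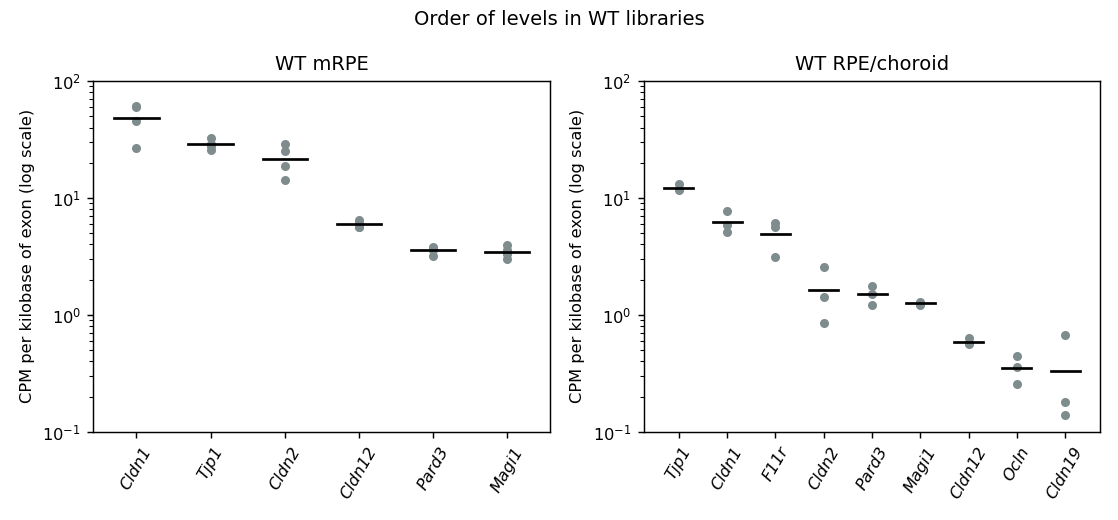
CPM per kilobase of exon on log axes in WT mRPE (4 libraries) and WT RPE/choroid (3 libraries), genes ordered by mean; points are libraries and bars are means. Cldn1, Tjp1 and Cldn2 stand highest in mRPE, and Tjp1 stands highest in RPE/choroid.

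The second line, KO26, did not show the loss of claudin transcripts. None of the 6 genes was called against WT by edgeR or by DESeq2, beside 1.92% of 20737 genes called by edgeR. By either tool 1 of 6 had an unadjusted p under 0.05, beside 20.1% of all genes by edgeR. Cldn1 stood at 169 and 326 CPM in KO26, within or above the WT range, with a log2 fold change of 0.43 (SE 0.45, edgeR adjusted p = 0.62). Cldn2 stood at 22.4 and 67.1 CPM, the first below every WT library and the second within their range. Its log2 fold change was -0.62 (SE 0.24, edgeR adjusted p = 0.184), and over leave-one-out fits it ran from -1.07 to -0.26. Magi1 stood at 17.9 and 26.8 CPM, below every WT library, with a log2 fold change of -0.57 (SE 0.26, edgeR adjusted p = 0.26). With WT and KO26 fitted alone, Cldn2 (-0.65, adjusted p = 0.0295) and Magi1 (-0.67, adjusted p = 0.00403) passed the adjusted p but not the fold limit, and so they did without KO22 replicate 1, at -0.63 (edgeR adjusted p = 0.0265) and -0.64 (edgeR adjusted p = 0.00352). Magi1 was at -0.21 (edgeR adjusted p = 0.695) without WT replicate 1, the smallest difference over its alternatives. Cldn12, Tjp1 and Pard3 had log2 fold changes of 0.10, 0.04 and -0.16. Groups were apart for 1 of 6 genes, beside 24.7% of all genes.

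The difference between the lines was tested in the same fit. Against KO26, KO22 was lower in 3 of the 6 genes, beside 18.3% of 20737 genes called and 10.7% called lower. By the adjusted p alone 4 of 6 differed, beside 34.4% of all genes. Cldn1 differed by -6.11 (SE 0.56, adjusted p = 2.87e-05), Cldn2 by -6.83 (SE 0.35, adjusted p = 1.13e-06) and Magi1 by -1.53 (SE 0.28, adjusted p = 0.00208), all from edgeR. The Magi1 difference fell short of the fold limit without KO22 replicate 1, at -1.13 (edgeR adjusted p = 5.98e-05). Pard3 differed by 0.69 (SE 0.14, edgeR adjusted p = 0.00352), short of the fold limit, while Cldn12 and Tjp1 did not pass the test. KO22 and KO26 share their WT libraries in the comparisons with WT, so the 2 sets of values are given side by side only.

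**Figure D3:**
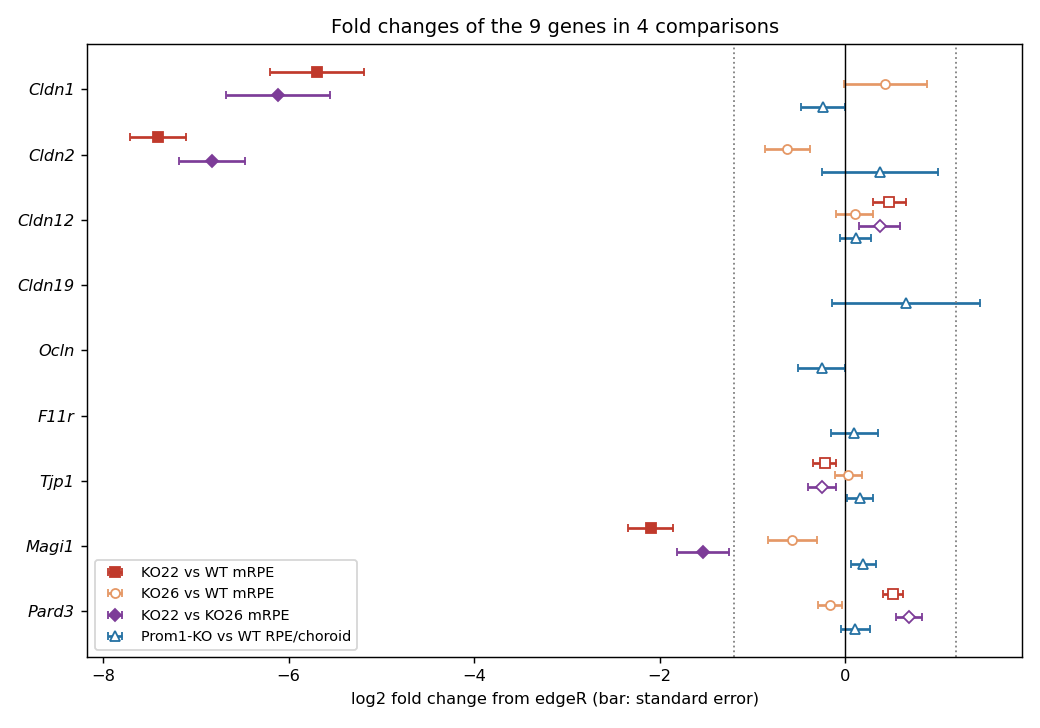
edgeR log2 fold changes with standard errors for the 9 genes in 4 comparisons; filled symbols passed both limits, dotted lines mark the fold limit, and Cldn19, Ocln and F11r have RPE/choroid values only. Filled symbols are Cldn1, Cldn2 and Magi1 in the comparisons that include KO22.

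Further genes of the pathway were read from lists by role. In KO22 against WT, 12 of 48 list genes tested were called, which was 25% beside 25.2% of all genes, with 4 higher and 8 lower. Among membrane proteins, the angulin Ildr2, a protein of tricellular contacts, fell from a mean of 21.2 to 1.07 CPM (log2 fold change -4.23, SE 0.21), Lsr, another angulin, fell from 2.31 to 0.853 CPM (-1.37, SE 0.29), and the adhesion molecule Jam2 rose from 11.8 to 64.3 CPM (2.46, SE 0.15). The plaque proteins Magi2 and Amotl2 fell (-2.99 and -1.29) and Cgn (cingulin) rose by 1.54, but from a level of only 0.234 CPM. In the polarity complexes, Patj of the Crumbs complex (-4.63), Pard3b and Pard6b of the Par complex (-1.91 and -3.75) and Llgl2 of the Scribble complex (-2.63) fell, while Scrib rose by 1.53 from 13.7 to 39.2 CPM. Tiam1, a Rac exchange factor that binds Pard3, rose by 1.34. Pard6b rested on a mean of 1.05 CPM in WT. Its WT libraries ran from 0.0982 to 2.78 CPM and overlapped with KO22, which reached 0.145 CPM. Patj and Llgl2 were also low, with means of 4.45 and 2.33 CPM in WT and 0.151 and 0.351 CPM in KO22. No claudin of the list was called.

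In KO26 against WT, 2 of 48 list genes were called. Ildr2 (-1.87, SE 0.23) and Pard3b (-1.83, SE 0.38) were both lower, and these are 4.17% of the list beside 1.92% of all genes. KO22 differed from KO26 in 7 of 48 genes, 14.6% beside 18.3% of all genes. Jam2 (3.59) and the adhesion receptor Cxadr (1.59) were higher in KO22, and Patj, Ildr2, Llgl2, Magi2 and Lsr were lower, by between 1.81 and 3.15 on the log2 scale.

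**Figure D4:**
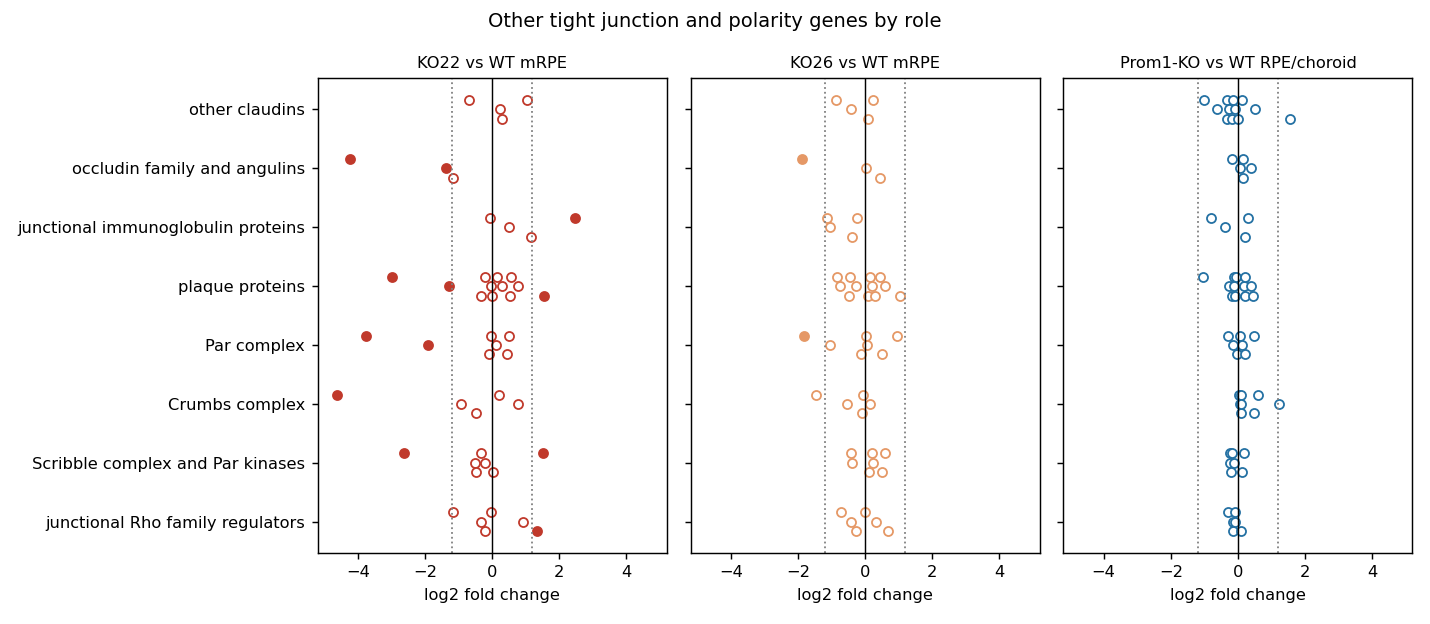
edgeR log2 fold changes of other tight junction and polarity genes by role in KO22 against WT, KO26 against WT and the libraries labelled Prom1-KO against WT RPE/choroid; each point is a gene, filled points passed both limits, and dotted lines mark the fold limit. KO22 has 12 filled points among 48, KO26 has 2 and RPE/choroid has none among 61.

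Genes with the most similar pattern were found by Pearson's r of log2 CPM over the 9 mRPE libraries, which share 3 groups and 2 batches. For Cldn1 they were Pax3 (0.999), Slf2 (0.997) and Gas6 (0.997), and 565 genes exceeded 0.95. For Cldn2 they were Aldh1a1 (0.999), Ctso (0.997) and Abca9 (0.997), and 819 genes exceeded 0.95. For Magi1 they were 2700054A10Rik (0.993), Thumpd2 (0.990) and Itpkb (0.990), and 331 genes exceeded 0.95. Many genes thus shared the pattern of each.

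In RPE/choroid, the question was whether junction transcripts changed in tissue after RPE-directed deletion. None of the 9 genes was called by edgeR or DESeq2, and none had an unadjusted p under 0.05 by either tool, beside 0.189% of 24926 genes called and 8.3% with an unadjusted p under 0.05. Adjusted p-values ran from 0.774 to 0.954 and log2 fold changes from -0.25 to 0.66. In bulk tissue, fewer cells of a type and less RNA per cell cannot be told apart.

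Cldn1 stood at 37.4, 24.7 and 28.2 CPM in WT and at 29.6, 29.2 and 17.9 CPM in the libraries labelled Prom1-KO (log2 fold change -0.23, SE 0.24). Cldn2 stood at 8.88, 2.94 and 4.88 CPM in WT and at 10.4, 9.31 and 1.86 CPM (0.38, SE 0.62). The size of the Cldn2 difference rested on single libraries: it was 0.011 without the library labelled Prom1-KO replicate 1, 0.07 and 0.15 without WT replicate 2 and Prom1-KO replicate 2, and 0.81 and 0.89 without Prom1-KO replicate 3 and WT replicate 1, with no call in any fit. Both groups spanned a wide range that overlapped, with the lowest value in the library labelled Prom1-KO replicate 3. Cldn19 (chr4:119112591-119119635, plus strand), a claudin known from the RPE and the kidney, was high and low in the same libraries as Cldn2, at 2.88, 0.592 and 0.772 CPM in WT and 2.99, 3.20 and 0.431 CPM. Its log2 fold change was 0.66 (SE 0.80), and it was 1.11 without the library labelled Prom1-KO replicate 3 and 1.71 without WT replicate 1, with no call in either fit. Cldn12 was the steadiest claudin, between 5.72 and 6.52 CPM in WT and between 5.73 and 8.02 CPM (0.11, SE 0.17).

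Ocln (chr13:100630334-100689535, minus strand) was low, at 4.19, 3.37 and 2.42 CPM in WT and 2.81, 3.33 and 2.19 CPM (log2 fold change -0.25, SE 0.26). F11r (chr1:171265092-171292958, plus strand), a junctional immunoglobulin protein, stood at 19.5, 21.1 and 10.7 CPM in WT and 17.995, 20.9 and 16.2 CPM (0.10, SE 0.26). The groups overlapped for both genes. Tjp1 was the most abundant of the 9 by CPM, at 104, 94.2 and 92.9 in WT and 113, 118 and 93.6 (0.16, SE 0.14). Pard3 stood at 26.5, 22.9 and 18.5 CPM in WT and 24.8, 25.9 and 22.7 CPM (0.11, SE 0.16). Magi1 was the only one of the 9 whose groups did not overlap, at 12.8, 13.3 and 13.7 CPM in WT and 17.5, 14.0 and 14.1 CPM. The difference was small (0.20, SE 0.13, edgeR adjusted p = 0.774), and groups were apart for 14.6% of all genes.

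**Figure D5:**
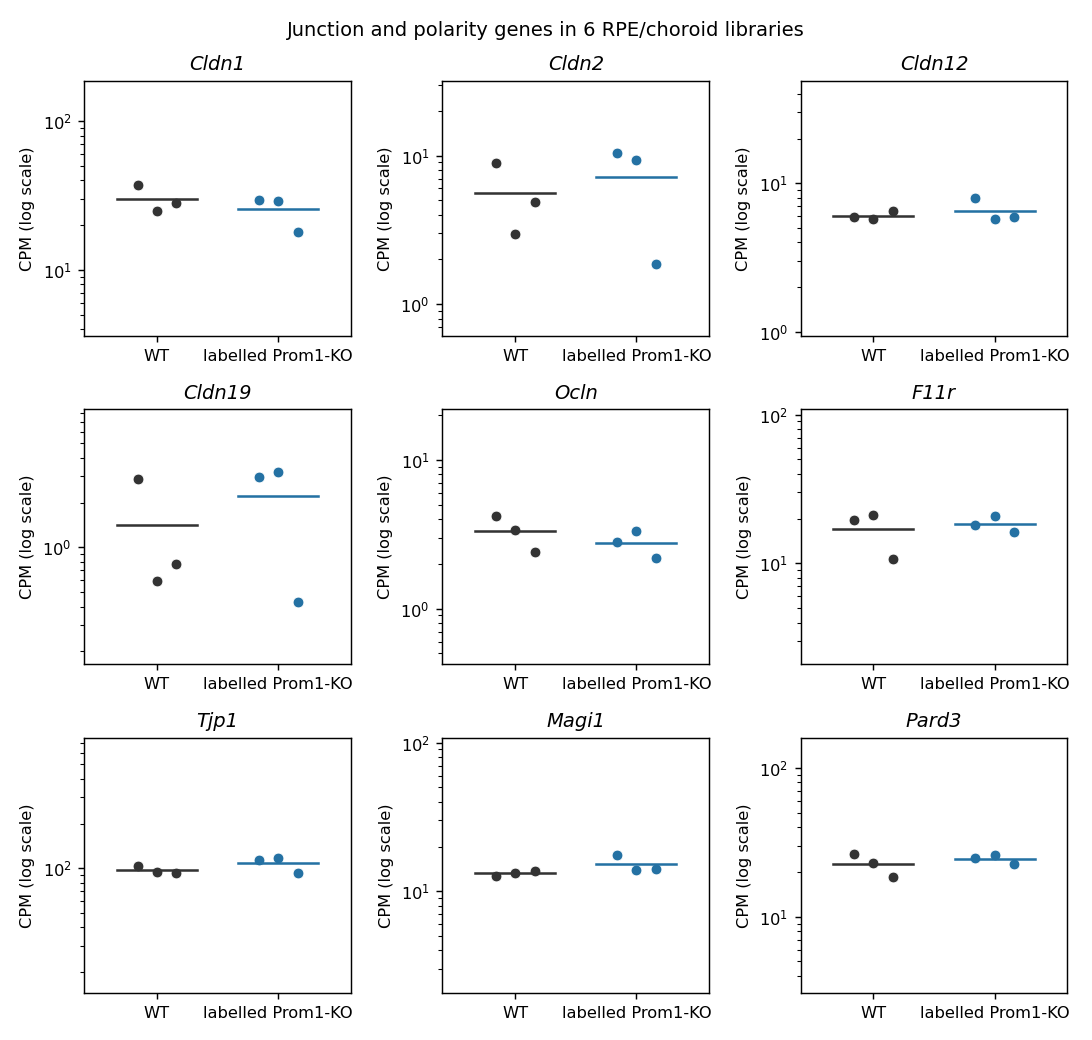
CPM of the 9 genes in each RPE/choroid library on log axes, with WT in black and the libraries labelled Prom1-KO in blue; points run from replicate 1 to 3 from left to right and bars are group means. The groups overlap for every gene except Magi1, and Cldn1, Cldn2 and Cldn19 are lowest in the library labelled Prom1-KO replicate 3.

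Retinoid genes of the RPE changed in the same libraries in which the junction genes did not pass the test. Rpe65, the retinoid isomerase, fell from 280, 204 and 287 CPM to 1.13, 5.97 and 4.48 CPM (log2 fold change -6.06, edgeR adjusted p = 0.0191), and Lrat (-3.43, adjusted p = 0.00445) and Rdh5 (-2.10, adjusted p = 0.0242) also fell by edgeR. These were the 3 genes called of the 13 on the RPE list. The other 10 did not pass, among them Ttr (log2 fold change -3.01, edgeR adjusted p = 0.0709), Rlbp1 (-2.07, adjusted p = 0.0929) and Mitf (-0.82, adjusted p = 0.0815), and the pigment genes Tyr, Dct and Pmel stood at 0.31, 0.37 and -0.15. Ttr, the most abundant of the list in WT, stood between 481 and 977 CPM in WT and between 48.05 and 143 CPM in the libraries labelled Prom1-KO. The list summed to between 1758 and 2512 CPM in WT and between 1010 and 1122 CPM in the libraries labelled Prom1-KO. The endothelial list of 8 genes summed to between 80.5 and 166 CPM in WT and between 49.4 and 76.5 CPM in the libraries labelled Prom1-KO. Among its genes only Cldn5, itself a claudin, had a positive log2 fold change, at 0.12. All others were negative, from -0.49 for Pecam1 to -1.69 for Plvap (edgeR adjusted p = 0.0993), and none was called. Of the epithelial list, sums ran from 49.7 to 84.5 CPM and from 46.6 to 75.2 CPM. The library labelled Prom1-KO replicate 3 stood apart, with 84.2% mitochondrial counts beside 64.9% to 71.3% in the others. Xist stood at 1316 and 1146 CPM in replicates 1 and 2 labelled Prom1-KO and between 1.79 and 3.60 CPM in the other 4 libraries, so the groups were not matched in sex, and Cldn2 lies on the X chromosome. The part of these differences in the junction gene values was not tested.

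None of 61 other tight junction and polarity genes was called in RPE/choroid by edgeR or DESeq2, and 4 had an unadjusted p under 0.05 by edgeR and 3 by DESeq2. Over all 24926 genes tested by edgeR, 0.189% were called and 8.3% had an unadjusted p under 0.05. The lowest adjusted p was that of Tjap1, a plaque protein, at 4.36 CPM in WT and 2.10 CPM in the libraries labelled Prom1-KO (log2 fold change -1.05, SE 0.17, edgeR adjusted p = 0.0877). The median over the list was -0.03, beside 0.01 over all genes tested. Of the 16 claudins with a row, Cldn1 supplied 20.3% to 32.1% of the summed level per kilobase in WT and 21.3% to 26.7% in the libraries labelled Prom1-KO, and Cldn2 supplied 3.40% to 8.73% and 3.40% to 13.2%.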

How the data were processed

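Bulk RNA was sequenced from 9 mRPE and 6 RPE/choroid libraries. Per the labels and the study's methods, the authors trimmed reads with Trim Galore 0.6.7, aligned them to mm39 with STAR and deposited raw counts per gene, which were used here. The kit was stated differently in the labels and the methods, and both name a stranded mRNA kit. Deposited normalised tables were not used. The study left out both KO26 libraries as outliers, and they were kept here. No per-sample column was unmapped.

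The filter kept genes reaching 5 counts in 3 or more libraries. Tests used edgeR 4.0.16 (quasi-likelihood, TMM scaling, Benjamini-Hochberg over all genes), with batch as a term in mRPE. KO22 against WT used 7 libraries, and comparisons with KO26 used all 9. The standard error is the absolute log2 fold change over the square root of F. DESeq2 1.42.0, other filters, other scalings and leave-one-out fits were alternatives. CPM used TMM library sizes, and exon lengths came from GENCODE M39. The scripts were tested on simulated data. Replicates of a group differed beyond sampling noise, and no source said that mRPE libraries were separate cultures, so p-values measure the spread between these libraries. The named genes were the 9 genes, list genes called, and the 3 most correlated genes for each of the 9 called in KO22. Other list genes and cell type markers are given by value, and Prom1 as a check of the labels. Tjap1, Xist and Ddx3y were chosen after their values were seen. The genes, lists and tests were chosen with earlier results of these data known.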

Additional observations from a re-analysis of the deposited data

Results flagged for a closer look

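The 2 Prom1-KO lines differed from each other in 4 of the 6 genes tested, by the adjusted p of the edgeR test between them. Of all 20737 genes tested, 34.4% passed the same limit. KO22 minus KO26 was -6.11 for Cldn1 (adjusted p = 2.87e-05), -6.83 for Cldn2 (adjusted p = 1.13e-06), -1.53 for Magi1 (adjusted p = 0.00208) and 0.69 for Pard3 (adjusted p = 0.00352) on the log2 scale, from edgeR. All 3 KO22 libraries lay below both KO26 libraries for Cldn1, Cldn2, Magi1 and Tjp1, and above both for Pard3. Groups were thus apart for 5 of 6 genes, beside 47.9% of all genes. By the gap to the nearest library as a share of the range, no WT mRPE library passed the limit for 4 samples in any of the 6 genes tested. Across all genes, WT replicate 1, the one WT library of batch 8995, was the farthest from the others. Pairs that included it gave 59.3 to 79.6 for chi-square over degrees of freedom, and pairs among the other 3 gave 4.797 to 7.20. WT replicate 1 was the lowest WT library for Cldn1, Cldn2, Magi1 and Pard3, and the highest for Cldn12.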

How the results depend on the processing

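Of 390 fits of single genes under alternatives, 379 kept their direction and their side of the limits. Cldn1, Cldn2 and Magi1 stayed called lower in KO22 against WT under all 15 alternatives, from -6.62 to -5.19, -8.10 to -7.17 and -2.32 to -1.74. Without the fold limit, the called genes in KO22 against WT numbered 5 of 6 (Cldn12 and Pard3 added, Cldn12 with an adjusted p of up to 0.22 over the alternatives). List genes called then numbered 27 of 48 in KO22 against WT, 4 of 48 in KO26 against WT and 14 of 48 between the lines. Over all genes, 53% passed in KO22 against WT, 725 of 20737 in KO26 against WT and 34.4% between the lines. List genes called in KO26 against WT numbered 1 without the batch term and 1 to 3 on leaving out a library, and between the lines 4 with KO22 and KO26 alone and 4 to 9 on leaving out a library. The sign changed on leaving out a library for Tjp1 in KO26 against WT (-0.044 to 0.097, with -0.0134 and -0.0129 among them). It also changed in RPE/choroid for F11r (-0.15 to 0.28, with -0.0014 among them), Pard3 (-0.0149 to 0.24) and Cldn12 (-0.0672 to 0.20). Values of changed sign were smaller than the standard errors with all libraries, 0.15 for Tjp1, 0.26 for F11r, 0.16 for Pard3 and 0.17 for Cldn12. The cause of the sign changes was not tested. Magi1 between the lines lost its call without KO22 replicate 1 (-1.13). All genes called in KO26 against WT numbered 399, and 818 with WT and KO26 alone, 629 by DESeq2, 194 without the batch term and 114 to 878 on leaving out a library. In RPE/choroid they numbered 47, and 273 by DESeq2 and 9 to 40 on leaving out a library. Between the lines they numbered 3797, and 2336 with KO22 and KO26 alone. The alternatives KO22 against WT within batch 9262 alone and RPE/choroid without mitochondrial genes were added after seeing the data and changed no call of the 9 genes. No paired analysis was possible because the labels gave no replicate numbers shared by the groups. With 20 reads behind Cldn2 in KO22, the size of its fall is less certain than its direction. With 2 KO26 libraries, sizes in comparisons with KO26 are uncertain as well, and against WT so was the direction for Tjp1.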
